A study of Mus musculus with 9 samples.

Results

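The miR-30 family is described here in the primary visual cortex of mice of the C57BL6 strain, killed at postnatal day 28. The rule took the 5 guide strands mmu-miR-30a, mmu-miR-30b, mmu-miR-30c, mmu-miR-30d and mmu-miR-30e (miR-30a to miR-30e below), matched by name among the mouse probes of an Agilent miRNA array, out of 611 mouse miRNAs on it. All 5 were measured on all 9 arrays. Dark-reared mice (n = 3 arrays) lived in darkness from birth. Monocularly deprived mice (n = 3) had normal light until day 24, then the lid of 1 eye sutured for 4 days, and only cortex contralateral to the suture was used. Control mice (n = 3) had normal light throughout. The question is how members of the family respond to loss of vision through both eyes or through 1 eye. Whether replicates came from different animals or from pools is not stated in the labels, so a p-value reflects sample-to-sample spread that may be technical.

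A miRNA finds its target messenger RNAs mainly through its seed, bases 2 to 8 of the mature strand, and members of a seed family can act on overlapping targets. The miR-30 family is abundant in many tissues, brain included, and is encoded as 3 pairs of hairpins on separate chromosomes. miR-30a is known in human cells for acting on Beclin 1, an autophagy gene. miR-30b and miR-30d are known in human melanoma for acting on the glycosyltransferase GALNT7. miR-30c is known in mouse liver for lowering lipoprotein secretion through Mttp. miR-384-5p, which carries the same seed and is not a member here, is known in rodent hippocampus for a role in lasting synaptic potentiation.

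The mature strands are shown because they carry the shared seed, in capitals, and the bases that tell the members apart. They come from RefSeq (GRCm38.p6), which matched 3 of the 5 members and miR-384-5p. miR-30b and miR-30d are named only.
miR-30a: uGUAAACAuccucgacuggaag
miR-30c: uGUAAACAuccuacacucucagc
miR-30e: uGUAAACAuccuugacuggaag
miR-384-5p: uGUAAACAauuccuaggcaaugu
The seed GUAAACA is the same in all 4. miR-30a and miR-30e differ at 1 of 22 bases, miR-30a and miR-30c at 5 of 22, and miR-30a and miR-384-5p at 10 of 22. Mature miR-30a lies at chr1:23272274-23272295 (plus strand), miR-30e at chr4:120772660-120772681 (minus strand) and miR-384-5p at chrX:105344332-105344354 (minus strand). miR-30c has the same mature sequence at chr1:23291714-23291736 (plus strand) and chr4:120769584-120769606 (minus strand), so the arrays cannot say which hairpin gave its signal.

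The hairpins form 3 clusters. Mir30a (chr1:23272269-23272339) and Mir30c-2 (chr1:23291701-23291784) are 19361 bases apart. Mir30b (chr15:68337415-68337510) and Mir30d (chr15:68341208-68341289) are 3697 bases apart. Mir30c-1 (chr4:120769534-120769622) and Mir30e (chr4:120772606-120772697) are 2983 bases apart, both within the span of Nfyc, which encodes a subunit of the transcription factor NF-Y.

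The array probes are shown because the results below turn on how closely related members were told apart and on probe length. The longest probe of each member, 5′ to 3′ as deposited, falls into one of 2 alignable sets. In the first set, capitals mark the 2 of 14 compared positions at which miR-30a, miR-30d and miR-30e differ.
miR-30a probe: cttccagtcGAggatgt
miR-30d probe: cttccagtcGGgga
miR-30e probe: cttccagtcAAggatgt
In the second set, aligned at the 3′ end, capitals mark the 4 of 17 positions at which miR-30b and miR-30c differ.
miR-30b probe: AGCTgagtgtaggatgt
miR-30c probe: gCTGAgagtgtaggatgt
The probes of miR-30a and miR-30e pair with their own mature strand at 0 mismatches and with each other's at 1. The miR-30d probes have 1 mismatch to miR-30a and 2 to miR-30e, and the miR-30b probes have 4 to miR-30c. How far a probe also bound a related strand was not tested. The second probe of each member is shorter: cttccagtcGAggat for miR-30a (which has 1 more probe, of intermediate length), AGCTgagtgtaggatg for miR-30b, gCTGAgagtgtaggatg for miR-30c, cttccagtcGGgg for miR-30d and cttccagtcAAggatg for miR-30e.

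Each member had 20 spots per array, and all 900 spots of the 5 members on 9 arrays were well above background. Of these, 53 (5.89%) were called outliers and left out, 24 of them for miR-30b, and 0 were saturated. Member intensities were 517.669 to 3575.55 units, 7.82 to 46.8 times the local background. Levels below are log2 of the processed intensity after division by the array's 75th percentile, so 0 is that percentile and 1 unit is a doubling. Levels of different members are not compared, because each probe has its own brightness.

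Per the file headers, dark-reared and control arrays were on slide 1 (scan 1). Slide 2 (scan 2) held the 3 monocularly deprived arrays and no others. The dark-reared comparison therefore lies within 1 slide, but the control arrays lay in its row 1 and the dark-reared arrays in its row 2. Row and group cannot be told apart there. For the monocularly deprived arrays, slide and group cannot be told apart. The 10 bright corner control spots of each array, which hold no miRNA probe, had median intensities of 8936.05 to 11410.3 on dark-reared, 475.632 to 730.768 on monocularly deprived and 11165.6 to 15252.4 on control arrays. All 5 listed neuronal marker miRNAs, miR-124 and miR-9 among them, were detected on all 9 arrays. Their summed scaled level was 74.99 to 76.4 on dark-reared, 64.6 to 87.4 on monocularly deprived and 76.9 to 77.4 on control arrays. Of 6 choroid plexus and epithelial markers, 4 were detected on all 9 arrays and miR-200c and miR-141 on none. The summed scaled level of this list was 0.923 to 1.23 on dark-reared, 0.841 to 0.893 on monocularly deprived and 0.703 to 0.767 on control arrays, and its part in the results was not tested.

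After dark rearing, no miR-30 member was called changed. miR-30c was at 1.82, 2.02 and 1.76 on the dark-reared arrays, against 1.80, 1.82 and 1.84 on the control arrays. The dark-reared arrays straddled the control arrays, and dark-reared replicate 2 was the highest. The log2 change was 0.04 (SE 0.09, 95% interval -0.16 to 0.25, limma adjusted p = 0.871). miR-30d was at 0.29, 0.59 and 0.29 on the dark-reared arrays, against 0.16, 0.36 and 0.21 on the control arrays. Dark-reared replicate 2 again stood highest, and the groups overlapped, although the dark-reared array was the higher in all 3 same-numbered pairs. Its change of 0.15 was the largest of the 5 (SE 0.12, 95% interval -0.14 to 0.43, limma adjusted p = 0.738), and with the pair as a block it was not called either (limma adjusted p = 0.516).

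The other 3 members moved by less than miR-30d after dark rearing. miR-30a was at 1.25, 1.36 and 1.25 on the dark-reared arrays, against 1.26, 1.22 and 1.28 on the control arrays, a change of 0.03 (95% interval -0.19 to 0.26). miR-30b was at 1.01, 1.05 and 0.88 on the dark-reared arrays, against 1.00, 0.90 and 0.97 on the control arrays, a change of 0.02 (95% interval -0.18 to 0.22). miR-30e was at 0.72, 0.73 and 0.65 on the dark-reared arrays, against 0.69, 0.57 and 0.68 on the control arrays, a change of 0.06 (95% interval -0.13 to 0.24). The groups overlapped for all 3. By limma, 0 of 5 members passed the adjusted threshold, and 0 of 5 had an unadjusted p under 0.05. The background was 1 of 318 tested miRNAs (0.314%), with 31 (9.75%) at an unadjusted p under 0.05. Groups did not overlap for 0 of 5 members, against 18.2% of all tested miRNAs. The members' median change was 0.04, against 0.06 over all tested miRNAs. The highest upper bound of these intervals was 0.43 on the log2 scale, for miR-30d, and precision is limited by having 3 arrays in a group.

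**Figure D1:**
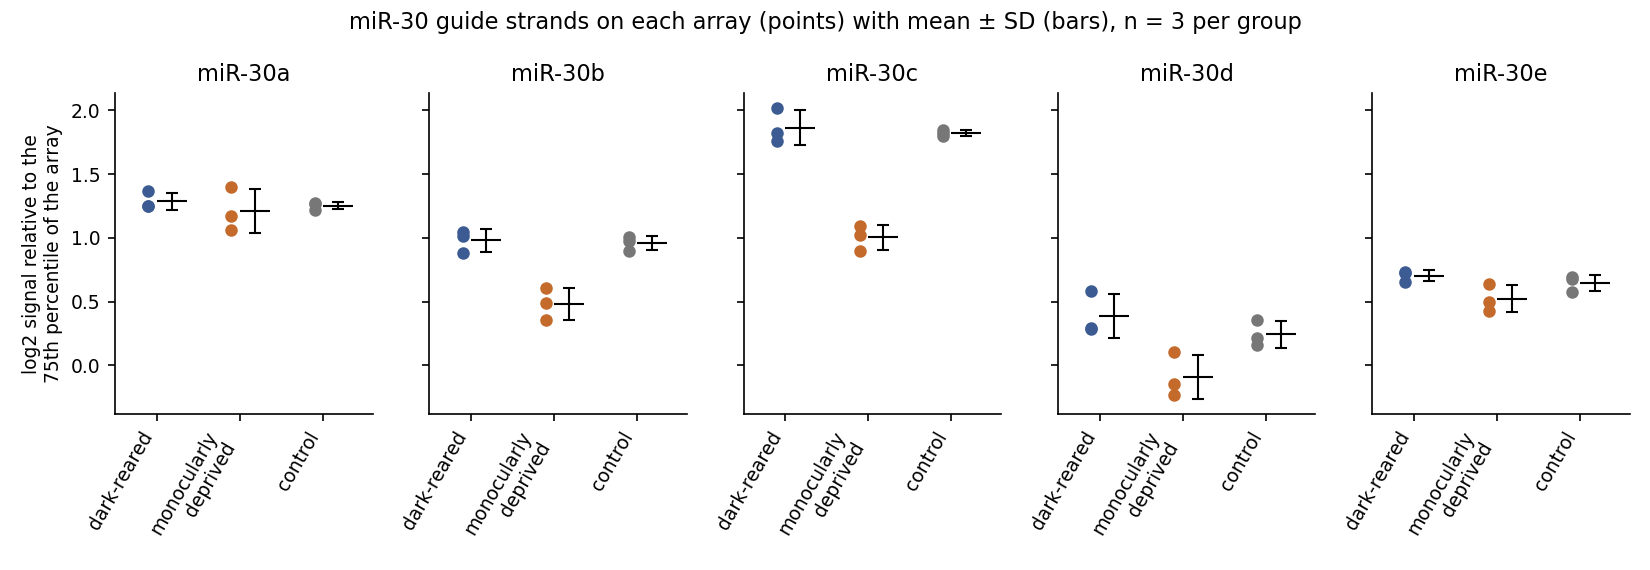
Log2 of the signal divided by the array's 75th percentile on the vertical axis, for the 5 miR-30 guide strands in dark-reared, monocularly deprived and control cortex. Points are single arrays, and bars give mean ± SD (n = 3). The monocularly deprived arrays of miR-30b, miR-30c and miR-30d lie below every control array, while those of miR-30a and miR-30e overlap the control arrays.

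After monocular deprivation, miR-30c and miR-30b fell and the other 3 members did not pass the test. miR-30c was at 1.02, 1.09 and 0.90 on the monocularly deprived arrays, against 1.80, 1.82 and 1.84 on the control arrays. Every monocularly deprived array lay well below every control array. The means were 1.00 ± 0.10 and 1.82 ± 0.02 (SD, n = 3 each), a log2 change of -0.82 (SE 0.09, 95% interval -1.03 to -0.61, limma adjusted p = 0.000255), which is 1.76-fold lower. The direction was the same in 26 processing alternatives, but the call ended in 3 of them: the percentile over all mouse probes (limma adjusted p = 0.201), no scaling (0.0957) and normexp background correction (0.337).

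miR-30b was at 0.49, 0.60 and 0.36 on the monocularly deprived arrays, against 1.00, 0.90 and 0.97 on the control arrays. The groups did not overlap. The means were 0.48 ± 0.12 and 0.96 ± 0.05 (SD, n = 3 each), a log2 change of -0.48 (SE 0.09, 95% interval -0.68 to -0.27, limma adjusted p = 0.00568), which is 1.39-fold lower. Among settings without a replicate block, the call of miR-30b ended in 4. These were the percentile over all mouse probes, where the sign turned (limma adjusted p = 0.819), no scaling (0.437), normexp (0.582) and normexp without spots of very bright background (0.0516). With the mean of log2 probe values, which weights dim probes more, the changes of miR-30c and miR-30b were -1.17 and -0.79, both called. In bulk cortex, fewer cells of a type and less RNA per cell cannot be told apart.

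miR-30d, the cluster partner of miR-30b, was at -0.14, 0.10 and -0.23 on the monocularly deprived arrays, against 0.16, 0.36 and 0.21 on the control arrays. The groups did not overlap, but the highest monocularly deprived array lay close to the lowest control array. The change of -0.33 (SE 0.12, 95% interval -0.62 to -0.05) did not pass after adjustment (limma adjusted p = 0.0707). It passed without monocularly deprived replicate 2 (limma adjusted p = 0.0322) and without dark-reared replicate 2, which enters through the shared spread (limma adjusted p = 0.0477). It also passed after quantile normalization (limma adjusted p = 0.0109).

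miR-30a was at 1.17, 1.40 and 1.06 on the monocularly deprived arrays, against 1.26, 1.22 and 1.28 on the control arrays. Monocularly deprived replicate 2 was the highest of the 6 and the other 2 the lowest. The change was -0.04 (SE 0.10, 95% interval -0.26 to 0.18, limma adjusted p = 0.761). miR-30e was at 0.50, 0.64 and 0.43 on the monocularly deprived arrays, against 0.69, 0.57 and 0.68 on the control arrays, with the groups overlapping. The change was -0.12 (SE 0.08, 95% interval -0.31 to 0.06, limma adjusted p = 0.268). With the mean of log2 probe values, miR-30e was called lower, by -0.30 (limma adjusted p = 0.0167).

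In all, 2 of 5 members were called lower and 0 higher after monocular deprivation. The background was 106 of 318 (33.3%) called either way, 57 (17.9%) of them lower and 49 (15.4%) higher. Groups did not overlap for 3 of 5 members, all lower, against 80 of 318 miRNAs (25.2%) apart in that direction. The members' median change was -0.33, against 0.06 over all tested miRNAs, and all 5 changes were below 0. The balance of calls moved with the scaling: 67 higher and 38 lower after quantile normalization, 0 and 36 with no scaling, and 189 and 33 when the percentile was taken over all mouse miRNA probes.

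That last scaling moved the median change of all miRNAs to 0.58, so members were also read relative to the median. On the scaling used throughout, miR-30c stood at -0.88 and miR-30b at -0.54 relative to that median, with miR-30d at -0.40, miR-30e at -0.19 and miR-30a at -0.11. With the percentile over all probes these differences were -0.87, -0.53, -0.39, -0.18 and -0.10. After quantile normalization they were -0.98, -0.64, -0.51, -0.20 and -0.16. The members kept this order in all of these scalings. The signs of miR-30a, miR-30b, miR-30d and miR-30e themselves turned under the percentile over all probes (0.48, 0.05, 0.19 and 0.40). With normexp background correction the median change of all miRNAs was -0.43. Relative to it miR-30c stood at -0.27, miR-30b at 0.04, miR-30d at 0.14, miR-30e at 0.35 and miR-30a at 0.46. Normexp without spots of very bright background gave -0.90, -0.56, -0.41, -0.23 and -0.15 in that order.

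Dark-reared and monocularly deprived arrays were also compared directly. Dark-reared levels of miR-30c (1.82, 2.02 and 1.76) all lay above the monocularly deprived ones (1.02, 1.09 and 0.90), a log2 difference of 0.86 (SE 0.09, limma adjusted p = 0.000202). Those of miR-30b lay 0.50 higher (limma adjusted p = 0.00496), and those of miR-30d lay 0.48 higher (limma adjusted p = 0.0232). The groups did not overlap for these 3 members. miR-30e was 0.18 higher on the dark-reared arrays, also with no overlap, and did not pass (limma adjusted p = 0.129). miR-30a, with overlapping groups, was 0.08 higher (limma adjusted p = 0.581). So 3 of 5 members were called higher in dark-reared cortex, against 59 of 318 miRNAs (18.6%) called higher and 82 (25.8%) called either way. Groups were apart for 4 of 5, against 86 of 318 (27%) apart in that direction. miR-30d was called in 17 of 26 processing alternatives. Its call was lost without dark-reared replicate 2 (limma adjusted p = 0.0597), monocularly deprived replicate 1 (0.0819) or monocularly deprived replicate 3 (0.0726). It was also lost with no filter on dim miRNAs (0.0592), no scaling (0.967), normexp (0.574), normexp without spots of very bright background (0.104) and a replicate block on both groups alone (0.0542). miR-30e passed without monocularly deprived replicate 2 (limma adjusted p = 0.0454). miR-30e also passed with the mean of log2 probe values (limma adjusted p = 0.0101) and with the files' own total signal per miRNA (0.0405). With the percentile over all mouse probes the direction turned for 4 members, and 2 were called lower in dark-reared cortex, miR-30a (-0.60, limma adjusted p = 0.0150) and miR-30e (-0.50, limma adjusted p = 0.0285), with 0 called higher. This comparison uses the same monocularly deprived arrays as the one above, and slide and group cannot be told apart here either.

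**Figure D2:**
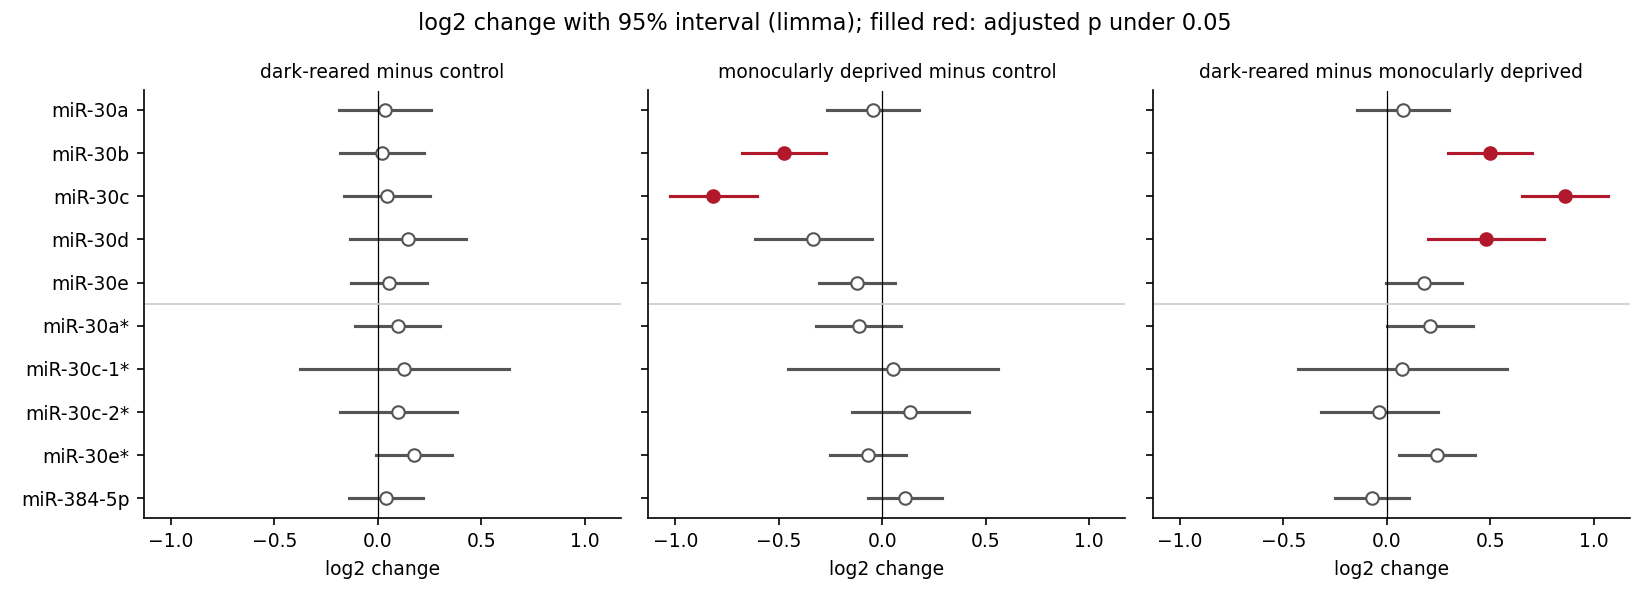
Log2 change with its 95% interval from limma (horizontal axis) for the 5 miR-30 guide strands (above the grey line) and 5 related strands (below it), in the 3 comparisons. Filled red points have an adjusted p under 0.05: miR-30b and miR-30c in both comparisons with monocularly deprived cortex, miR-30d in dark-reared minus monocularly deprived, and none in dark-reared minus control.

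For each member, the group means can be put in order. miR-30c averaged 1.87 ± 0.14 in dark-reared, 1.00 ± 0.10 in monocularly deprived and 1.82 ± 0.02 in control cortex, and miR-30b averaged 0.98 ± 0.09, 0.48 ± 0.12 and 0.96 ± 0.05 in the same groups (SD, n = 3 each). For both, dark-reared and control cortex differed by less than the spread between arrays. miR-30d averaged 0.39 ± 0.17 in dark-reared, -0.09 ± 0.17 in monocularly deprived and 0.24 ± 0.10 in control cortex. miR-30e averaged 0.70 ± 0.04 in dark-reared, 0.52 ± 0.11 in monocularly deprived and 0.65 ± 0.06 in control cortex. miR-30a averaged 1.29 ± 0.07 in dark-reared, 1.21 ± 0.17 in monocularly deprived and 1.25 ± 0.03 in control cortex. All 5 members had their lowest mean in monocularly deprived cortex, but for miR-30a, miR-30d and miR-30e no neighbouring pair in the order passed the test, and for miR-30d only the outer pair, dark-reared and monocularly deprived, did.

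The 3 clusters were compared within each array, which removes the scaling. miR-30c comes from both the miR-30a and the miR-30e cluster, so it was left out at first. After monocular deprivation, the change in the mean of miR-30b and miR-30d minus that of miR-30a was -0.36 (pooled SD 0.04, n = 3 each, exact two-sided permutation p = 0.1). Minus that of miR-30e it was -0.28 (pooled SD 0.07, n = 3 each, exact p = 0.1). Both differences had groups that did not overlap, and 0.1 is the smallest p that 3 arrays against 3 allow, so neither could pass 0.05 (0.225 after Benjamini-Hochberg over the 9 cluster tests). miR-30a and miR-30e differed in change by 0.08 (pooled SD 0.05, n = 3 each, exact p = 0.2, adjusted 0.3), with overlapping arrays.

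The other comparisons gave the following cluster values. In dark-reared minus monocularly deprived cortex, miR-30b with miR-30d differed by 0.41 from miR-30a and by 0.31 from miR-30e (exact p = 0.1 each, n = 3 each, adjusted 0.225). In dark-reared minus control cortex, the 3 cluster differences were 0.05, 0.03 and -0.02 (exact p = 0.3, 0.5 and 0.6, n = 3 each), and all had overlapping arrays.

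miR-30c had the largest change of the 5 members after monocular deprivation, while miR-30a and miR-30e, which are encoded beside its 2 hairpins, did not pass the test. The 95% interval of miR-30c (-1.03 to -0.61) does not overlap those of miR-30a (-0.26 to 0.18) and miR-30e (-0.31 to 0.06), and the differences between these members were not tested. When miR-30c was averaged with miR-30a and with miR-30e, the cluster differences after monocular deprivation turned to 0.03 and 0.06, so the gap between the miR-30b cluster and the others holds only with miR-30c left out. miR-30b, whose probes are closest in sequence to those of miR-30c, was the other member called.

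The opposite strands of the same hairpins, named with an asterisk, were also read. How far their levels follow the output of each locus was not tested. On the monocularly deprived arrays miR-30a* was at -3.20, -3.09 and -3.18, against -3.12, -2.94 and -3.07 on the control arrays, with overlap (change -0.11, limma adjusted p = 0.355). miR-30e* was at -2.90, -2.86 and -2.93 on the monocularly deprived arrays, against -2.92, -2.79 and -2.77 on the control arrays, also with overlap (change -0.07, limma adjusted p = 0.514). Its 17-base and 18-base probes changed by -0.31 and 0.01. The 16-base and 17-base probes of miR-30a* changed by -0.15 and -0.10. miR-30c-2*, the strand opposite miR-30c in Mir30c-2, changed by 0.14 (SE 0.12, 95% interval -0.15 to 0.42, limma adjusted p = 0.403). The interval for miR-30c-2* does not reach the change of -0.82 measured for miR-30c, and whether these strands changed unequally was not tested. miR-30c-2* was dim, at 0.166 to 0.298 times the local background, and only its longest probe was bright enough, on 8 of 9 arrays. miR-30c-1*, opposite miR-30c in Mir30c-1, changed by 0.05 but lay near the detection floor, with no probe well above background on more than 2 arrays. miR-30b* was too dim to be tested, and no mouse probe on the array carried the name miR-30d*.

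miR-384-5p, with the miR-30 seed, was at -2.21, -2.20 and -2.19 on the monocularly deprived arrays, against -2.25, -2.43 and -2.27 on the control arrays. It lay above every control array, by 0.11 (SE 0.08, limma adjusted p = 0.298), and was not called. Of all 318 tested miRNAs, 15.4% were called higher in this comparison. In limma, 0 of these 5 related strands passed in any comparison. At an unadjusted p under 0.05 the count was 0 in dark-reared minus control and 0 in monocularly deprived minus control cortex, where 42.5% of all tested miRNAs were under it. In dark-reared minus monocularly deprived cortex it was 2, miR-30a* (0.21, limma adjusted p = 0.115) and miR-30e* (0.24, limma adjusted p = 0.0547), against 42.1% of all. In dark-reared minus control cortex the changes of these strands ran from 0.04 for miR-384-5p to 0.17 for miR-30e*. The arrays of miR-30e* did not overlap (limma adjusted p = 0.449), against 18.2% of all tested miRNAs apart in either direction.

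The probes of a member did not all move alike after monocular deprivation. The 17-base probe of miR-30c was at -0.89, -1.04 and -1.03 on the monocularly deprived arrays, against 0.74, 0.70 and 0.73 on the control arrays, a change of -1.71. Its 18-base probe was at 1.82, 1.92 and 1.70, against 2.40, 2.45 and 2.47, a change of -0.63. Each probe separated the groups without overlap, and the probe shorter by 1 base had the larger change.

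The probes of miR-30b were likewise unequal. Its 16-base probe was at -1.59, -1.61 and -1.79 on the monocularly deprived arrays, against -0.37, -0.48 and -0.45 on the control arrays, a change of -1.23. Its 17-base probe was at 1.31, 1.44 and 1.18, against 1.69, 1.59 and 1.67, a change of -0.34. The longer probe again separated the groups.

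For miR-30a and miR-30e, the groups were well apart on the shortest probe. The 15-base probe of miR-30a was at -0.87, -0.85 and -0.91 on the monocularly deprived arrays, against -0.31, -0.35 and -0.39 on the control arrays, a change of -0.52, while its 16-base and 17-base probes changed by -0.07 and 0.04. The 16-base probe of miR-30e was at -1.02, -0.96 and -1.12 on the monocularly deprived arrays, against -0.39, -0.50 and -0.43 on the control arrays, a change of -0.59. Its 17-base probe was at 1.22, 1.38 and 1.16, against 1.30, 1.18 and 1.29, with overlap. The 13-base and 14-base probes of miR-30d changed by -0.36 and -0.31. In dark-reared minus control cortex, no probe of the 5 members changed by more than 0.15 in either direction. The median coefficient of variation between spots of a member probe on 1 array was 2.23% to 5.45%.

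**Figure D3:**
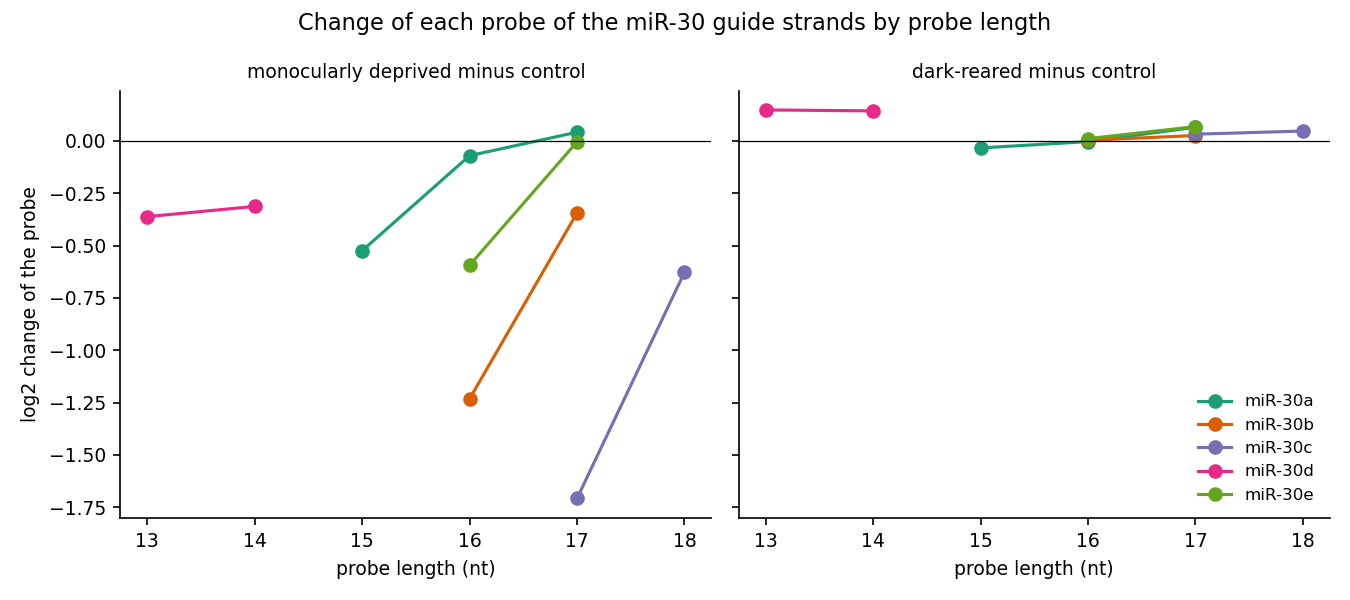
Log2 change (vertical axis) of each probe of the 5 miR-30 guide strands against probe length in bases (horizontal axis), in monocularly deprived minus control and dark-reared minus control cortex. Lines join the probes of 1 member. After monocular deprivation the shorter probe lies lower for every member, by 0.05 for miR-30d and by 0.57 to 1.08 for the other 4, whereas after dark rearing the lines are nearly flat.

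Calls were also made from single probes, an alternative added after seeing the data. With the shortest probe of every miRNA, 4 members were called lower after monocular deprivation, and miR-30d was not (limma adjusted p = 0.0611). From the shortest probe, 84 of all 318 tested miRNAs were called, 59 of them lower. With the longest probe, 2 members were called: miR-30c by -0.63 (limma adjusted p = 0.00215) and miR-30b by -0.34 (limma adjusted p = 0.0218). From the longest probe, 94 of all 318 were called, 43 of them lower. miR-30c and miR-30b were thus called from either probe, and miR-30a and miR-30e from the shorter one.

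The gap between probes was set against that of all miRNAs with more than 1 probe length bright enough. The change of the shortest probe minus that of the longest, monocularly deprived minus control, was -1.08 for miR-30c, -0.89 for miR-30b, -0.59 for miR-30e, -0.57 for miR-30a and -0.05 for miR-30d. Groups did not overlap in this gap for 4 of the 5, against 71.1% of 180 other miRNAs. The other 180 miRNAs had a median of -0.12 (quartiles -0.23 and -0.06), and for 162 of them (90%) the shorter probe had the lower change. The gap runs the same way across the array, and 4 of the 5 members lie beyond the lower quartile of the others. In dark-reared minus control cortex, on 1 slide, the members' gaps were -0.10 to 0.005 and the others' median was -0.04. The part of probe length in the fall of miR-30b and miR-30c was not tested.

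**Figure D4:**
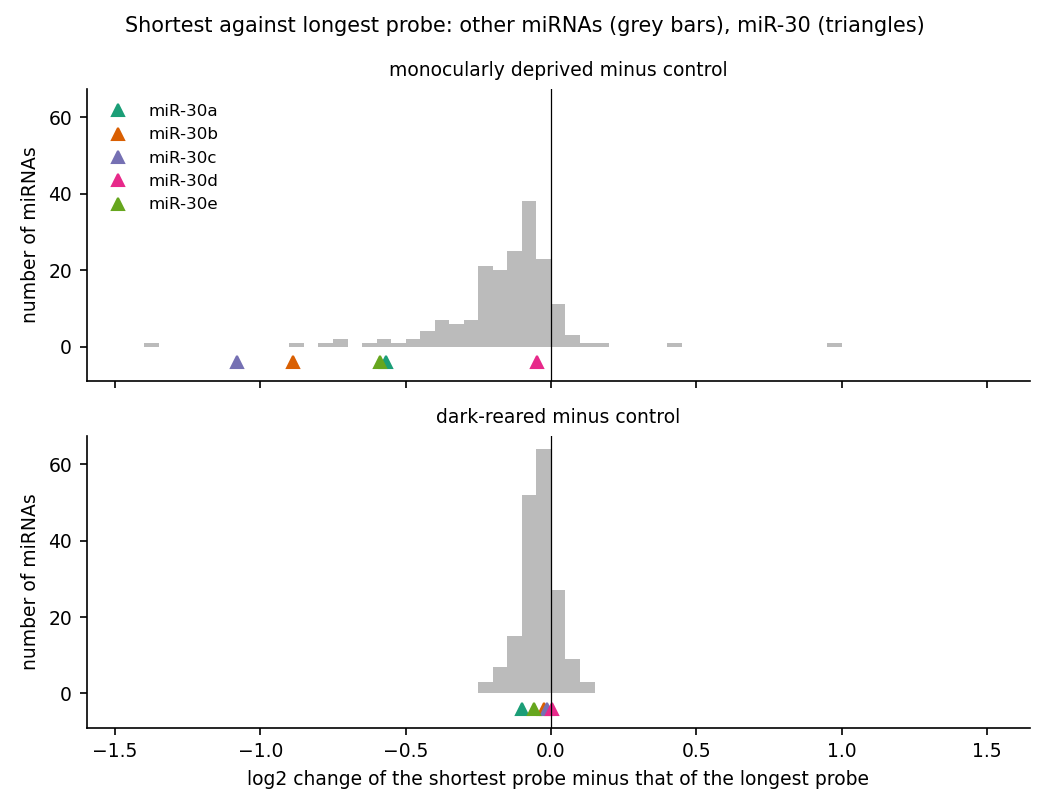
Log2 change of the shortest probe minus that of the longest (horizontal axis) for 180 other miRNAs (grey bars, number of miRNAs) and the 5 miR-30 guide strands (triangles). In monocularly deprived minus control cortex the bars centre on -0.12 and 4 of the 5 triangles lie at -0.57 or lower, while in dark-reared minus control cortex bars and triangles lie near 0.

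Among themselves, the members varied together to different degrees over the 9 arrays, which share depth scaling and a slide split. miR-30b and miR-30c had the highest correlation (Pearson r = 0.98 over 9 arrays), and miR-30a and miR-30c the lowest (r = 0.45). Over the 6 arrays of slide 1, which hold only dark-reared and control cortex, miR-30a and miR-30c had r = 0.89 and miR-30b and miR-30c r = 0.69. Dark-reared replicate 2 was the highest of these 6 arrays for both miR-30a (1.36) and miR-30c (2.02). The correlation without that array was not computed. Neither miR-30a nor miR-30c was called different between the groups of slide 1.

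The miRNAs whose level was most like the mean of the 5 members over the 9 arrays were miR-324-3p (r = 0.97), miR-383 (0.94), miR-186 (0.93), miR-1895 (0.93) and miR-335-3p (0.93), against a median of -0.003 over all tested miRNAs. Over the 6 arrays of slide 1 their r was 0.88, 0.39, 0.52, 0.16 and -0.45. Within slide 1, miR-324-3p kept the highest of these correlations and that of miR-335-3p was below 0. The shortest minus the longest probe changed by -1.38 for miR-324-3p, -0.51 for miR-383, -0.27 for miR-186 and -0.23 for miR-1895 after monocular deprivation. The median over 180 miRNAs other than the members was -0.12. The part of this gap in the likeness was not tested. For single members the closest were miR-295* for miR-30c (r = 0.99 over 9 arrays, 0.87 on slide 1), miR-335-3p for miR-30b (0.96 and -0.17), miR-324-3p for miR-30d (0.95 and 0.86), miR-124 for miR-30a (0.89 and 0.66) and miR-101a for miR-30e (0.88 and 0.93). Of these, miR-295* was detected on 6 of the 9 arrays and miR-335-3p on 8, so their r includes arrays on which they were not detected. miR-324-3p, miR-124 and miR-101a were detected on all 9. These correlations are descriptions over arrays that share a slide, with no test.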

How the data were processed

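Intensity values were deposited as scanner output of single-colour (Cy3) Agilent mouse miRNA arrays. Per the file headers, the background was subtracted by Feature Extraction 10.1.1.1, and arrays were not scaled to each other. The deposited series matrix equalled the processed intensity at 100% of spots (relative tolerance 1e-05, linear scale, not centred, column medians 3.08 to 9.92). Log2 was computed here from the authors' linear values.

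Outlier spots were left out. Spots were averaged per probe and then linearly per miRNA, divided by the 75th percentile of 428 probes well above background on all 9 arrays (403 to 1028 units), floored at the 1st percentile of detected values (0.00415) and log2-transformed. A total of 318 mouse miRNAs detected on all 3 arrays of a group were fitted with limma 3.58.1 (R 4.3.3; 3 group means, 6 residual and 2.13 prior degrees of freedom), adjusted by Benjamini-Hochberg per comparison at 0.05. The code was tested on simulated data. Detected miRNAs numbered 305 to 359 on dark-reared, 297 to 317 on monocularly deprived and 310 to 333 on control arrays. Log2 levels correlated at r = 0.972 to 0.999 within groups, and 0 of 12220 spots were identical in any pair.

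Same-numbered dark-reared and control arrays deviated together across miRNAs (r = 0.888, 0.323 and 0.815) and share a slide column. Control replicate 2 deviated more closely with dark-reared replicate 3 (r = 0.616), so the deviations do not settle the pairing of replicate 2. No pairing was found with monocularly deprived arrays (r = -0.36 to 0.22 with control). The members, lists and tests were chosen with earlier results of these data known. Named were all members, the strands of their hairpins that were analysed, miR-384-5p, and the 5 (for each member, 3) miRNAs of highest correlation, of which the closest is printed for each member. The astrocyte, oligodendrocyte, vascular, leukocyte and red blood cell markers had 4 of 4, 2 of 2, 2 of 3, 4 of 6 and 3 of 3 miRNAs detected on all 9 arrays. Summed red blood cell markers were 1.43 to 2.57 on dark-reared, 2.66 to 2.89 on monocularly deprived and 1.29 to 2.53 on control arrays. Summed vascular markers were 1.526 to 1.683 on dark-reared, 1.884 to 2.005 on monocularly deprived and 1.684 to 1.894 on control arrays. The summed ranges of the astrocyte, oligodendrocyte and leukocyte lists overlapped between all groups. The part of these lists in the results was not tested.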

Additional observations from a re-analysis of the deposited data

How the results depend on the processing

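In 26 alternatives, miR-30c was below 0 in all after monocular deprivation and was called in 23 (-1.71 to -0.29), and miR-30b was called in 21 (-1.23 to 0.05). After dark rearing, 0 members were called in any. The shortest probe, the longest probe and normexp without spots of very bright background were added after seeing the data. The calls are limited by 3 arrays per group, by the slide that holds all monocularly deprived arrays, and by probes of unequal length. Causes of the changes below were not tested.

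Monocularly deprived minus control, members called (2 as reported) numbered 1 with the percentile over all mouse probes, 0 with no scaling, 0 with normexp, 1 with normexp without spots of very bright background, 4 with the shortest probe, 1 with a replicate block on both groups alone, and 3 with quantile normalization, the mean of log2 probe values or the replicate block on all 9 arrays. The 1 called with the percentile over all probes was higher, and the reported 2 lower. The miRNAs called (106) were 84 with the shortest probe, 105 with quantile normalization, 99 with the mean of log2 probe values and 100 with the block on all 9 arrays. They were 222, 36, 2, 5 and 58 with the percentile over all probes, no scaling, normexp, its trimmed form and the block on both groups alone. Dark-reared minus monocularly deprived, members called (3) were 0 with no scaling, 0 with normexp, 1 with its trimmed form, 5 with the shortest probe, 1 with the block on both groups alone and 4 with the mean of log2 probe values or the files' total signal, and 2 with the percentile over all probes, both lower against the reported 3 higher. With no filter on dim miRNAs, 2 members were called, both higher. There the miRNAs called (82) were 238 with the percentile over all probes and then 37, 1 and 4 with no scaling, normexp and its trimmed form, and 35 with that block. Dark-reared minus control, miRNAs called (1) were 0 with no scaling, normexp, the shortest probe or a floor at the 5th percentile, 2 with the brightest or longest probe, no filter or that block, 3 with quantile normalization or only the groups compared, and 4 where detection on all 9 arrays was required.

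With the percentile over all probes, signs turned for miR-30a (0.48), miR-30b (0.0511), miR-30d (0.19) and miR-30e (0.40) in monocularly deprived minus control, and for miR-30a (-0.60), miR-30b (-0.18), miR-30d (-0.20) and miR-30e (-0.50) in dark-reared minus monocularly deprived; miR-30a was then called in both (limma adjusted p = 0.0428 and 0.0150), and miR-30e in dark-reared minus monocularly deprived (0.0285). Quantile normalization turned miR-30c-1* to -0.66 in dark-reared minus monocularly deprived cortex. Counting these, the sign of a member's change differed from the reported one in 16 of 130 values in dark-reared minus control, 8 of 130 in monocularly deprived minus control and 4 of 130 in dark-reared minus monocularly deprived.

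The cluster differences moved as follows. After dark rearing, miR-30b with miR-30d against miR-30a was -0.0912 with quantile normalization and 0.11 with the shortest probe, and against miR-30e -0.0865 with quantile normalization. After monocular deprivation they were -0.41 and -0.38 with quantile normalization, -0.27 and -0.20 with the shortest probe, and 0.0251 and 0.0649 with miR-30c in both clusters. In dark-reared minus monocularly deprived they were 0.32 (against miR-30a) with quantile normalization and 0.0194 and -0.0307 with miR-30c in both clusters, and miR-30a minus miR-30e was -0.0276 with quantile normalization.

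Leaving out 1 array at a time, members called were 0 in dark-reared minus control, 2 to 3 in monocularly deprived minus control and 2 to 4 in dark-reared minus monocularly deprived. The miRNAs called were 0 to 3, 62 to 107 and 50 to 91 in the same order. In dark-reared minus control, 3 were called without monocularly deprived replicate 2, 2 without its replicate 3 and 0 without any other array. In monocularly deprived minus control, 62, 69, 67 and 63 were called without monocularly deprived replicates 1 and 3 and control replicates 1 and 2, and in dark-reared minus monocularly deprived 50 without monocularly deprived replicate 1. With the replicate block on all 9 arrays, miR-30c (limma adjusted p = 0.000927) and miR-30b (0.0109) kept their calls after monocular deprivation and miR-30d passed (0.0225). With the block on both groups alone, miR-30c passed (0.00985) and miR-30b did not (0.0545). Only dark-reared and control arrays deviated together by number, less clearly for replicate 2, and there the block called 0 members.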
